A study of Danio rerio with 9 samples.

Results

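Zebrafish embryos that had received mRNA of either of 2 hypoxia-inducible factor (HIF) alpha subunits, Hif-1α or Hif-3α, were taken as one side and compared with control embryos that had received mRNA of the green fluorescent protein, GFP. The embryos were whole Tuebingen embryos, collected 12 h after fertilization, and every group had been injected, the controls included. Each of the 9 arrays of the series carried RNA from a pool of 60 embryos, with 3 arrays for GFP, 3 for Hif-1α and 3 for Hif-3α. The 3 replicates of a group came from 3 independent microinjection experiments, and arrays with the same number shared an experiment. All 9 arrays entered the comparison, 6 on the injected side and 3 on the control side. The pooled change of a gene was the mean of the Hif-1α and the Hif-3α level minus the control level, with equal weight for each factor and the experiment as a block. The dose of mRNA is not given in the sources used here. The RNA came from whole embryos, so fewer cells of a type and less RNA per cell cannot be told apart.

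HIF alpha subunits pair with a beta subunit and switch on genes for glycolysis, iron handling, oxygen supply and mitochondrial turnover when oxygen is low. In normal oxygen, prolyl hydroxylases of the Egln family mark the alpha subunit and the von Hippel-Lindau protein, Vhl, sends it for degradation. Hif-1α is the classic activator of the family, and Hif-3α is the more divergent member, described as an activator of some genes and as an inhibitor of other alpha subunits. The comparison tests the mean change under both factors, so a gene that moved under only Hif-1α or only Hif-3α can pass too.

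Levels below are log2 signals relative to the 75th percentile of their array, and changes are differences of these levels with their standard error (SE) from the fit of all 9 arrays, 3 a group. Between 68.3% and 75.3% of the probes were well above background on each array. The experiment left a visible mark, since the deviations of arrays with the same number correlated at 0.110 to 0.582 in all 9 pairs. The 18 pairs of different number and group gave -0.493 to 0.072. Deviations were taken from each group's own mean, so positive values in the same-number pairs force the other pairs down on average. The second range is therefore no separate evidence. For control replicate 2 the mark was weak, at 0.110 with Hif-1α and 0.120 with Hif-3α of its number. Outlier flags covered 437 spots of Hif-3α replicate 1 and 3 to 24 spots of each other array, and the flagged values are missing from the fit. Of 50 markers of embryonic tissues with a probe, 48 were well above background on all 3 control arrays, among them all 7 of muscle and somite, all 7 of the neural plate and all 5 of the notochord. 3 of the 4 probes of hif1al, for which the reference lists Hif-3alpha as a synonym, exceeded the controls by 8.49, 6.41 and 5.85 in the embryos given Hif-3α, and the fourth, its brightest, differed by -0.02. No probe could be matched to the injected Hif-1α.

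With limma, 1568 of 19549 genes or transcripts changed in the pooled comparison at an adjusted p under 0.05, which is 8.02% of those tested. Of these 1028 rose (5.26%) and 540 fell (2.76%). Of the 1028, 55 had no control array above background and 87 had only some. They entered the fit through the injected arrays where they were high. Where a control value was not well above background, the size and p of a gene named below rest partly on it. For the 540 that fell both counts were 0, but a gene that fell could enter through the control arrays where it was high. Such genes were not counted, and ptk6b, apoea, vsx1 and hhatla, described below, are among them. A change of at least 2-fold was reached by 343 of the genes that rose and by 74 of those that fell. The same direction in all 6 injected arrays, each against the control of its own experiment, was held by 856 of the 1028 and 451 of the 540. These 6 differences share 3 control arrays, and the genes were chosen by a fit of the same arrays. They are therefore not 6 independent repeats, and the share over all genes tested is not given here. Of the genes that rose, 549 had a gene symbol, and of those that fell, 342 did. The split between higher and lower calls moved with the scaling: with each array centred on its median, 815 genes rose and 773 fell, and the share of higher calls went from 65.6% to 51.3%.

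The number of genes that passed changed with each array left out. Without control replicate 3 the count was 0 (3678 at an unadjusted p under 0.05), without control replicate 1 it was 66, and without control replicate 2 it was 3270. Leaving out a single injected array gave 444, 785 and 337 calls for Hif-1α replicates 1, 2 and 3, and 343, 761 and 154 for Hif-3α replicates 1, 2 and 3. No pooled call below therefore held without control replicate 3. In each of these 9 fits, all 1568 genes kept the sign of their change. These fits reuse arrays of the fit that chose the genes, so the kept sign is no independent support. Scan day also divided the arrays: 5 of them, control replicates 2 and 3, Hif-1α replicate 2 and Hif-3α replicates 2 and 3, were scanned on the same day, and within that day 21 genes passed. No other day held more than 1 group, and with scan day as a block in place of the experiment 0 genes passed (1719 at an unadjusted p under 0.05).

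**Figure D1:**
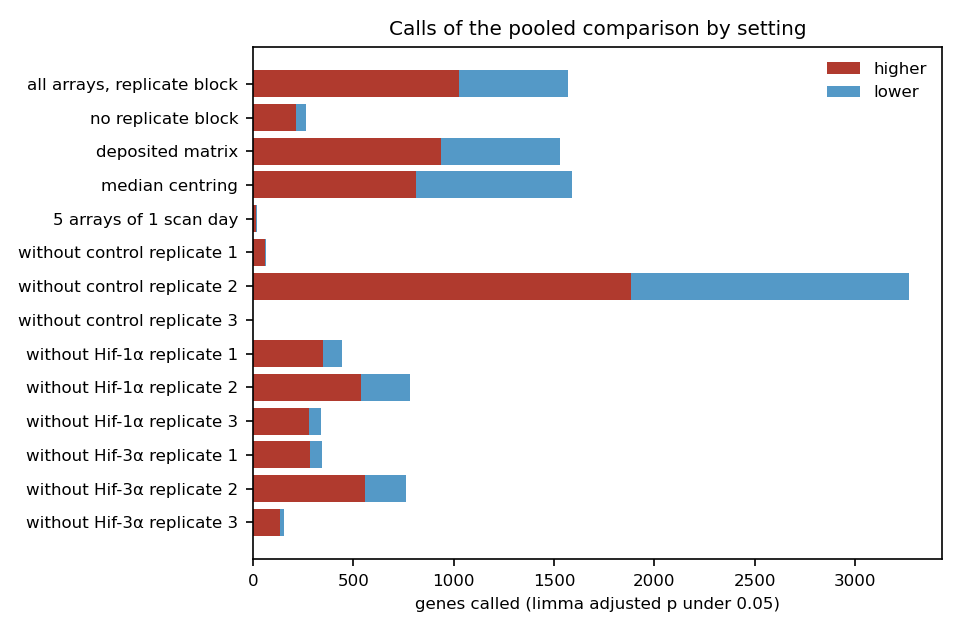
Number of genes called in the pooled comparison (horizontal axis, limma adjusted p under 0.05) with all 9 arrays and the experiment as a block (top bar) and under 13 other settings, with genes that rose in red and genes that fell in blue. The count was 1568 with all arrays, 0 without control replicate 3 and 3270 without control replicate 2.

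Each factor's own change against the controls is given beside the pooled one, and both use the same 3 control arrays. By itself Hif-1α changed 4420 genes (22.6% of those tested), 2286 of them higher (11.7%) and 2134 lower (10.9%). For Hif-3α the own comparison passed the threshold for 1 gene (0.00512%), casp6b.2, with 2478 genes at an unadjusted p under 0.05. casp6b.2 was not well above background on any control array, and with no filter on dim probes 0 genes passed for Hif-3α. The difference between the factors, Hif-3α minus Hif-1α, is estimated from the injected arrays, and 890 genes (4.55%) passed there, 371 higher with Hif-3α (1.9%) and 519 higher with Hif-1α (2.65%). Its residual spread comes from all 9 arrays, and without control replicates 1, 2 and 3 the count was 722, 2408 and 199.

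How evenly a pooled change was held by both factors was read from this difference. A change leaned to neither factor where the difference between them was smaller than 2/3 of the pooled change, and otherwise to the factor with the larger change. Among the 1568 called genes, 696 (44.4%) leaned to neither, 863 to Hif-1α and 9 to Hif-3α. Of the genes that rose, 476 (46.3%) leaned to neither, 545 to Hif-1α and 7 to Hif-3α. The genes that fell divided into 220 (40.7%), 318 and 2. The difference itself passed the test in 447 of the 1568 (28.5%, against 4.55% of all genes tested), with the larger size under Hif-1α in 443 and under Hif-3α in 4. Both tests use the same residual spread of a gene. In 29 called genes, the change under Hif-3α had the opposite sign to the pooled one. In 490 called genes, 347 higher and 143 lower, the whole 95% interval of the factor difference lay within plus or minus the pooled change.

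**Figure D2:**
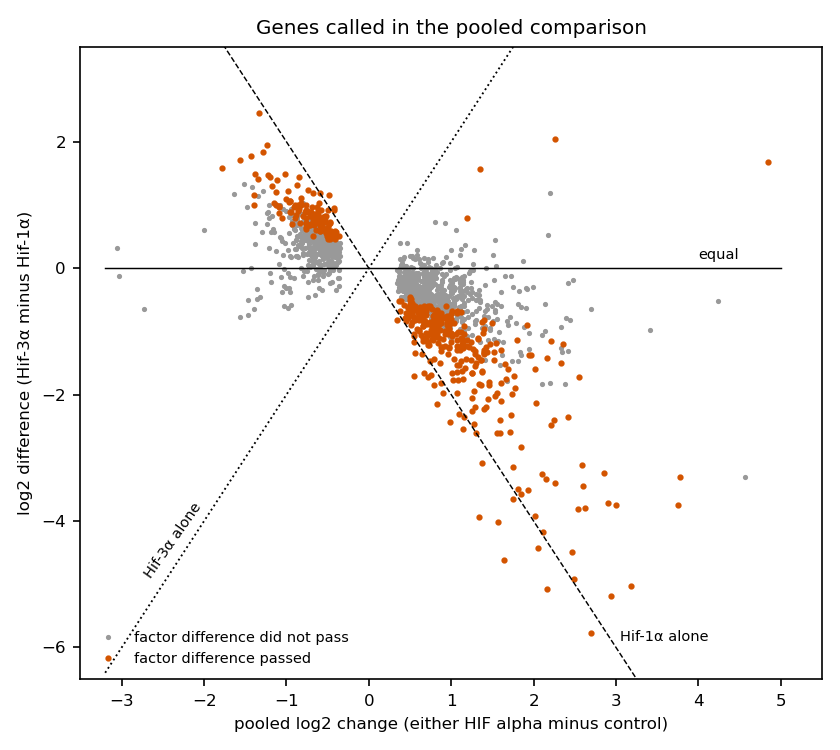
Pooled log2 change (horizontal axis) against the log2 difference Hif-3α minus Hif-1α (vertical axis) of the 1568 called genes, 1 point a gene, orange where the factor difference passed its own test. Points on the solid line changed equally under both factors, those on the dashed line under Hif-1α alone and those on the dotted line under Hif-3α alone, and most genes lie between the solid and the dashed line.

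casp6b.2, a caspase of the group that carries out cell death, was well above background with both factors and not in the controls. Its level was -7.80, -7.61 and -8.14 in control replicates 1, 2 and 3, -3.10, -3.84 and -4.61 with Hif-1α and -1.23, -2.70 and -2.57 with Hif-3α. No control array was well above background and all 6 injected arrays were, so the gene entered the fit through the injected arrays and its change has only a lower bound. Against the lowest signal above background it was at least 7.90-fold higher in the injected embryos, at least 4.41-fold with Hif-1α and at least 14.2-fold with Hif-3α (limma adjusted p of the pooled fit = 0.00535). That p rests on control values not well above background, so it adds no support beyond the bound. The Hif-3α embryos exceeded the Hif-1α embryos by 1.68 (95% interval 0.93 to 2.43, adjusted p = 0.0429). Its neighbour in name, casp6b.1, stood at -5.57, -5.47 and -5.71 in the controls, -3.58, -3.89 and -3.91 with Hif-1α and -3.94, -4.30 and -4.26 with Hif-3α. Of its control arrays 2 of 3 were above background. casp6b.1 thus entered the fit through the injected arrays, and its size and p rest partly on a control value not well above background. It rose by 1.61 ± 0.10 (adjusted p = 0.00619), 1.79 with Hif-1α and 1.42 with Hif-3α, with no overlap between controls and injected arrays. The 2 genes may share signal on their probes, so their separate values are uncertain.

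Other genes of p53 signalling and cell death rose in the pooled comparison. Of 33 tested members of this list, 9 rose (27.3%, against 5.26% of all genes) and 0 fell, and the median pooled change over the list was 0.17, against 0.00 for all genes. 6 of the 9 leaned to neither factor, and the 9 include casp6b.2. The initiator caspase casp8 was at -0.27, -0.52 and -0.23 in the controls, 0.59, 0.43 and 0.51 with Hif-1α and 0.79, 0.42 and 0.85 with Hif-3α. All 6 injected arrays lay above all 3 controls, the change was 0.94 ± 0.09 (adjusted p = 0.0108), and the factors differed by 0.17 (95% interval -0.07 to 0.42). bbc3, which encodes the p53 target Puma, rose by 1.13 (1.37 with Hif-1α, 0.88 with Hif-3α), and mdm2, the ubiquitin ligase that limits p53, by 0.68 (0.71 and 0.65). The survival gene bcl2l1 also rose, by 0.36 (0.37 and 0.35). The killer gene bik rose by 1.32 and the growth arrest gene gadd45ga by 0.91, both with the larger change under Hif-1α. phlda3, an Akt-inhibiting p53 target, rose by 0.80, with 0.44 under Hif-1α and 1.17 under Hif-3α. Without control replicate 1, 2 members of the list passed, and within the shared scan day 1 did. Over the 9 fits that left out 1 array, between 0 and 11 members rose.

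Among HIF targets outside glycolysis, 17 of 53 rose (32.1%) and 1 fell, with a median change of 0.52, 0.69 for Hif-1α and 0.18 for Hif-3α. Relative to the control mean, the list median was -0.29, 0.27 and -0.01 on control replicates 1, 2 and 3. On the Hif-3α arrays it was 0.32, 0.11 and 0.34, so the 2 groups overlapped. Of the 17, 7 leaned to neither factor, 9 to Hif-1α and 1 to Hif-3α. The receptor gene vldlr, which takes up very low density lipoprotein, was at -0.90, 0.20 and -0.23 in the controls, 1.36, 1.74 and 1.35 with Hif-1α and 1.31, 1.39 and 1.38 with Hif-3α. The 6 injected arrays formed a tight band above all controls. vldlr rose by 1.73 ± 0.17 (adjusted p = 0.0110), 1.79 with Hif-1α and 1.67 with Hif-3α, and the factors differed by -0.13 (95% interval -0.60 to 0.35). Both heme oxygenases, which break down heme, rose, hmox1b by 1.06 (1.13 and 0.99) and hmox1a by 0.98 (0.94 and 1.03).

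The oxidase gene ero1a, which drives disulfide bond formation in the endoplasmic reticulum, was at -3.83, -1.78 and -2.82 in the controls, -0.06, -0.14 and -0.33 with Hif-1α and -1.40, -0.81 and -1.28 with Hif-3α. All injected arrays exceeded all controls, although the controls spanned a wider range than either injected group, and the rise was 2.14 ± 0.31 (adjusted p = 0.0198). The mitophagy receptor gene bnip3lb was at 0.15, 1.50 and 0.83 in the controls, 2.82, 2.81 and 2.68 with Hif-1α and 1.99, 1.79 and 1.71 with Hif-3α. It rose by 1.48 ± 0.25 (adjusted p = 0.0250), 1.95 under Hif-1α and 1.01 under Hif-3α. The vascular endothelial growth factor receptor kdr rose by 0.71 (0.94 and 0.47), and its 2 other probes, at 0.30 and 0.44, did not pass. ddit4, a brake on mTOR signalling, was at 1.25, -0.26 and -0.35 in the controls, 1.81, 0.02 and 1.06 with Hif-1α and 2.39, 0.74 and 1.60 with Hif-3α. Experiment 1 was the highest in every group, so controls and injected arrays overlapped, yet each injected array exceeded the control of its own experiment. ddit4 rose by 1.05 ± 0.19 (adjusted p = 0.0298), 0.75 with Hif-1α and 1.36 with Hif-3α, and without the experiment in the fit its adjusted p was 0.323. edn1, which encodes the vessel-constricting peptide endothelin, was the member that fell, by 0.49 on the log2 scale (changes of -0.45 and -0.53). In the fit without control replicate 1, 1 member of this list passed, and within the shared scan day 0 of 53 did, and the 9 fits that left out 1 array gave 0 to 30 that rose.

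The other targets called in this list leaned to Hif-1α or Hif-3α. ndrg1a, a stress-response gene, rose by 2.2 (3.11 with Hif-1α and 1.29 with Hif-3α), and gys1, a glycogen synthase above background on 2 of 3 control and 2 of 3 Hif-3α arrays, by 1.07 (2.05 and 0.08). The lysyl hydroxylase genes plod1a and plod2, whose enzymes modify collagen, rose by 1.15 (1.67 and 0.62) and 0.46 (0.62 and 0.30). The collagen cross-linking enzyme loxl2b rose by 0.67 (other kept probe 0.67, not passed), with 1.49 under Hif-1α and -0.16 under Hif-3α. sqor, which oxidises hydrogen sulfide in mitochondria, went the other way. Its level was -1.07, 0.20 and -0.68 in the controls, 0.13, 0.01 and 0.02 with Hif-1α and 1.64, 1.93 and 1.30 with Hif-3α. The 3 Hif-3α arrays lay above all others, while the Hif-1α arrays lay within the range of the controls. sqor rose by 1.35 ± 0.22 in the pooled comparison (adjusted p = 0.0238). The Hif-3α level exceeded the Hif-1α level by 1.57 (95% interval 0.95 to 2.19, adjusted p = 0.0370). The other kept probe of sqor was also higher in the pooled comparison but did not pass. At the brightest probe, the change under Hif-3α by itself did not pass, and the pooled change passed in 2 of 9 fits that left out 1 array.

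**Figure D3:**
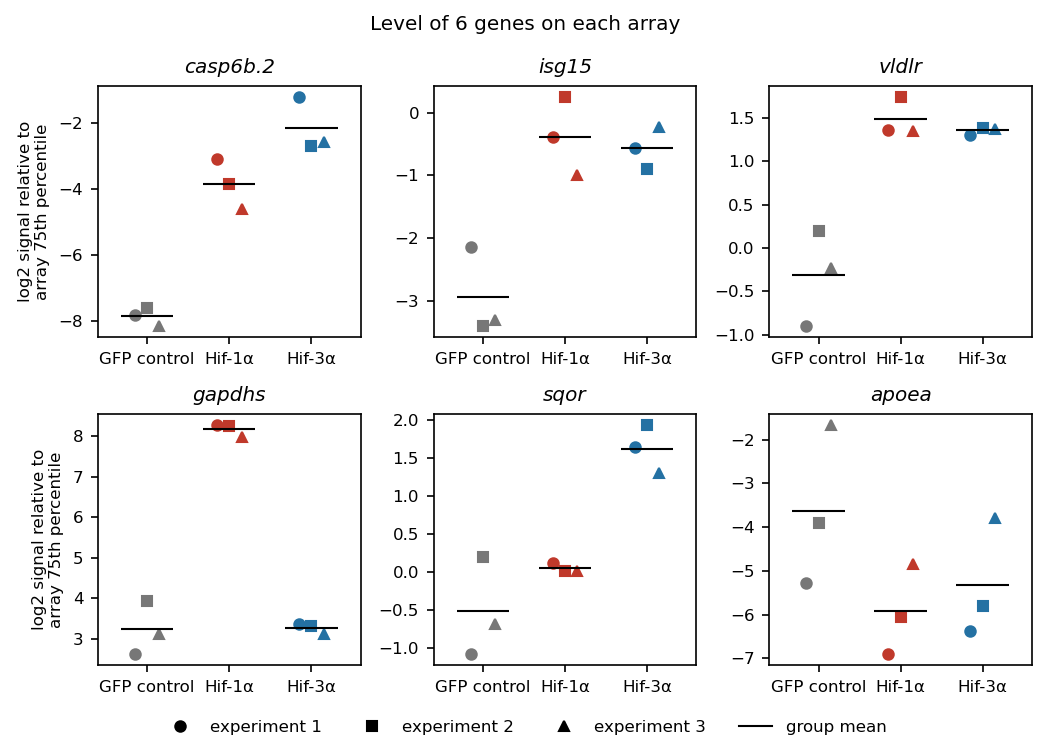
Level of 6 genes on each of the 9 arrays, as log2 signal relative to the array's 75th percentile (vertical axis, own scale for each gene), by injected mRNA (horizontal axis), with the marker shape for the experiment and a line for the group mean. At the brightest probe of each gene, casp6b.2, isg15 and vldlr were higher with both factors, gapdhs with Hif-1α alone and sqor mainly with Hif-3α. apoea was lower in each injected array than in the control of its own experiment.

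Genes of glucose entry, glycolysis and lactate rose in the pooled comparison mainly through Hif-1α. Of 37 tested, 11 rose (29.7%) and 0 fell, 9 of the 11 leaned to Hif-1α, and in 8 the factor difference passed its test. The median change of the list was 0.64 pooled, 0.80 with Hif-1α and 0.02 with Hif-3α. Relative to the control mean, the list median was -0.35, 0.33 and -0.07 on control replicates 1, 2 and 3. The Hif-3α arrays, at -0.10, -0.02 and 0.12, lay within that range. gapdhs, a glyceraldehyde-3-phosphate dehydrogenase, was at 2.63, 3.94 and 3.11 in the controls, 8.28, 8.25 and 7.99 with Hif-1α and 3.35, 3.30 and 3.11 with Hif-3α. The Hif-3α arrays lay within the range of the controls. The pooled rise was 2.49 ± 0.23 (adjusted p = 0.0107), made of 4.95 with Hif-1α and 0.03 with Hif-3α, and the factors differed by -4.92 (95% interval -5.55 to -4.28, adjusted p = 0.00172). At the 3 other kept probes of gapdhs the pooled rise was 4.08 to 4.10, and all 3 passed when adjusted over all probes. The triose phosphate isomerase tpi1b rose by 1.84 (3.26 and 0.42), the pyruvate kinase pkma by 1.75 (3.58 and -0.08) and the lactate transporter slc16a3a by 1.38 (2.92 and -0.17). pkma had an outlier-flagged spot and so no value on control replicate 1, and slc16a3a was above background on 2 of 3 control and 2 of 3 Hif-3α arrays. The members that leaned to neither factor were the aldolase aldoaa, which rose by 0.76 (0.85 and 0.67), and the muscle-type enolase eno3, which rose by 0.64 (0.74 and 0.53). The bifunctional enzyme pfkfb4b, which sets the level of an activator of glycolysis, rose by 0.59 (0.80 and 0.38). Leaving out control replicate 1 left 1 of the 37 called, and within the shared scan day 0 were. The 9 fits with 1 array left out gave 0 to 20 that rose and 0 to 3 that fell.

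gyg1a, a glycogenin, the protein on which a glycogen chain is started, was at 1.68, 2.15 and 1.48 in the controls, 4.60, 4.87 and 4.47 with Hif-1α and 3.47, 3.30 and 2.90 with Hif-3α. The groups did not overlap, and the Hif-1α arrays were the highest. gyg1a rose by 2.16 ± 0.12 (adjusted p = 0.00535), by 2.87 with Hif-1α and 1.45 with Hif-3α, and the factor difference of -1.42 passed its test (adjusted p = 0.0111). At its 3 other kept probes the pooled rise was 0.81 to 2.79, and all 3 passed when adjusted over all probes. The size thus depends on the probe. ppp1r3cb, a regulatory subunit that directs a phosphatase to glycogen, rose by 1.11 (1.50 and 0.73).

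Of the HIF pathway itself, 18 genes were tested and 1 rose, vhl (5.56%, against 5.26% of all genes). Its level was -2.55, -2.10 and -3.0 in the controls, -0.63, -0.76 and -0.92 with Hif-1α and -1.93, -1.99 and -2.19 with Hif-3α. The Hif-1α arrays stood clear of the rest, and 1 of the 3 Hif-3α arrays fell below the highest control. vhl rose by 1.15 ± 0.14 (adjusted p = 0.0143), 1.78 with Hif-1α and 0.51 with Hif-3α. The prolyl hydroxylase gene egln3 was at -0.80, 3.12 and 0.70 in the controls, 4.03, 3.29 and 3.80 with Hif-1α and 3.79, 3.04 and 3.31 with Hif-3α. Control replicate 2 stood near the injected arrays, and the pooled change of 2.53 ± 0.76 did not pass (adjusted p = 0.0884). It passed in 1 of the 9 fits that left out an array, that without control replicate 2 (3.78, adjusted p = 0.0118), and without control replicate 1 the value was 1.445 (adjusted p = 0.265). A further hydroxylase gene, egln1b, differed by 0.36 ± 0.10 (adjusted p = 0.0702). With Hif-1α by itself it rose by 0.56 and passed (limma adjusted p = 0.0197).

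Several genes often named as HIF targets did not pass in the pooled comparison. igfbp1a, a secreted protein that binds insulin-like growth factors, differed by 1.91 ± 0.53 (adjusted p = 0.0766), with 3.99 under Hif-1α and -0.18 under Hif-3α. The lactate dehydrogenase ldha differed by 1.74 ± 0.48 (adjusted p = 0.0747), with 3.00 and 0.49, while another of its probes passed at 1.72 (adjusted p = 0.0382 over all probes). Both had their highest control in replicate 2, at 1.21 for igfbp1a and 1.36 for ldha. The hexokinase hk2 differed by -0.75 ± 0.22 (adjusted p = 0.0873), and vegfaa, a vascular growth factor, by 0.19 ± 0.18 (adjusted p = 0.511). igfbp1b, the paralog of igfbp1a, differed by -0.00 ± 0.14 (adjusted p = 0.997). In the comparison of Hif-1α by itself, igfbp1a (limma adjusted p = 0.0107) and ldha (0.0164) passed as higher and hk2 (0.0374) as lower. vegfaa (0.489) and igfbp1b (0.565) did not pass there either.

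Some interferon-responsive genes rose in the pooled comparison. Of 23 tested, 5 rose (21.7%) and 0 fell, 3 leaning to neither factor and 2 to Hif-1α. isg15, a ubiquitin-like protein made in response to interferon, was at -2.13, -3.40 and -3.31 in the controls, -0.39, 0.25 and -0.99 with Hif-1α and -0.57, -0.89 and -0.23 with Hif-3α. The injected groups overlapped each other and lay above all controls. The rise was 2.48 ± 0.36 (adjusted p = 0.0198), 2.57 with Hif-1α and 2.39 with Hif-3α, with a factor difference of -0.18 (95% interval -1.19 to 0.82). stat1b, a transcription factor activated by interferon receptors, rose by 1.07 (1.31 and 0.84). The interferon regulatory factors irf1b and irf7 rose by 1.60 (2.51 and 0.70) and 0.79 (1.51 and 0.07). The other kept probe of irf1b differed by 0.36 and did not pass. The controls had been injected with RNA too, and the cause of these rises was not tested. Outside the list, il12rb2, an interleukin receptor subunit above background on 1 of 3 control arrays, and irg1l, an immune-responsive gene, rose by 2.86 (4.47 and 1.24) and 2.25 (3.45 and 1.04). il12rb2 entered the fit through the injected arrays, so its size is uncertain. With control replicate 1 left out, 0 of the 23 interferon genes passed, and within the shared scan day 1 did (0 to 7 over all 9 fits with 1 array left out).

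Oocyte and germline transcripts were the list with the highest share of calls: 14 of 38 rose (36.8%) and 0 fell, with a median change of 0.38 (0.55 with Hif-1α, 0.16 with Hif-3α). Of the 14, 9 leaned to Hif-1α, 4 to neither and 1 to Hif-3α. bmp15, an oocyte growth factor, was at -3.22, -3.46 and -3.55 in the controls, -1.64, -1.81 and -2.13 with Hif-1α and -2.01, -2.65 and -2.42 with Hif-3α. It rose by 1.30 ± 0.11 (adjusted p = 0.00990), 1.55 and 1.05, with no overlap between controls and injected arrays. btg4, which brings the deadenylase to maternal mRNA, was at -4.42, -5.56 and -5.48 in the controls, -1.82, -2.93 and -2.77 with Hif-1α and -3.14, -4.59 and -3.88 with Hif-3α. Experiment 1 was the highest in each group, so the highest control exceeded 1 Hif-3α array. btg4 rose by 1.97 ± 0.12 (adjusted p = 0.00619), 2.65 and 1.28. The germ cell genes dnd1 and nanos3, which protect germ cell fate, rose by 0.79 (1.04 and 0.54) and 0.70 (0.80 and 0.59). dazl, an RNA-binding protein of germ cells, rose by 1.06 (1.68 and 0.45), and the germ cell gene tdrd9 by 1.25 (2.08 and 0.42). zp3d.2, an egg coat protein, was the member that leaned to Hif-3α: it rose by 2.26 ± 0.33 (adjusted p = 0.0195), with 1.24 under Hif-1α and 3.28 under Hif-3α, and its family has many near copies, so its value is uncertain. Of the 38, 3 passed without control replicate 1 and 0 within the shared scan day, with 0 to 17 over all 9 fits that left out 1 array.

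Genes of the yolk layer and endoderm rose more often than they fell. Of 35 tested, 7 rose (20%, against 5.26% of all genes) and 1 fell (2.86%, against 2.76%). The median change of the list was 0.28, 0.38 with Hif-1α and 0.19 with Hif-3α. Relative to the control mean, the list median on control replicate 2 was 0.35. That exceeded Hif-1α replicate 3 (0.33) and all Hif-3α arrays (0.21, 0.18 and 0.07). mixl1, a homeobox gene of mesoderm and endoderm, was at -2.64, -1.70 and -2.73 in the controls, -0.14, -0.33 and -0.19 with Hif-1α and -0.54, -0.53 and -0.50 with Hif-3α. All injected arrays were above all controls, and the spread was small within each injected group. mixl1 rose by 1.99 ± 0.21 (adjusted p = 0.0125), 2.14 with Hif-1α and 1.84 with Hif-3α. gata5, an endoderm transcription factor, rose by 0.67 (0.87 and 0.47), mxtx1, a homeobox gene of the yolk syncytial layer, by 1.37 (2.09 and 0.64), and hnf4a, a nuclear receptor of endodermal organs, by 1.62 (2.3 and 0.94). The apolipoprotein E gene apoea fell. Its level was -5.28, -3.91 and -1.67 in the controls, -6.89, -6.05 and -4.84 with Hif-1α and -6.37, -5.81 and -3.80 with Hif-3α, with 2 of 3 arrays well above background in each injected group. It entered the fit through the control arrays. Experiment 3 was the highest in every group and control replicate 1 lay below the highest injected arrays, but each injected array lay below its own control. apoea changed by -2.0 ± 0.25 (adjusted p = 0.0146), -2.30 and -1.70, and without the experiment in the fit its adjusted p was 0.259. Some injected values were not well above background, so this size and its p are uncertain. Without control replicate 1, 0 members of the list rose and 1 fell, and the same counts were found within the shared scan day, while the 9 fits that left out 1 array gave 0 to 14 higher and 0 to 4 lower.

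**Figure D4:**
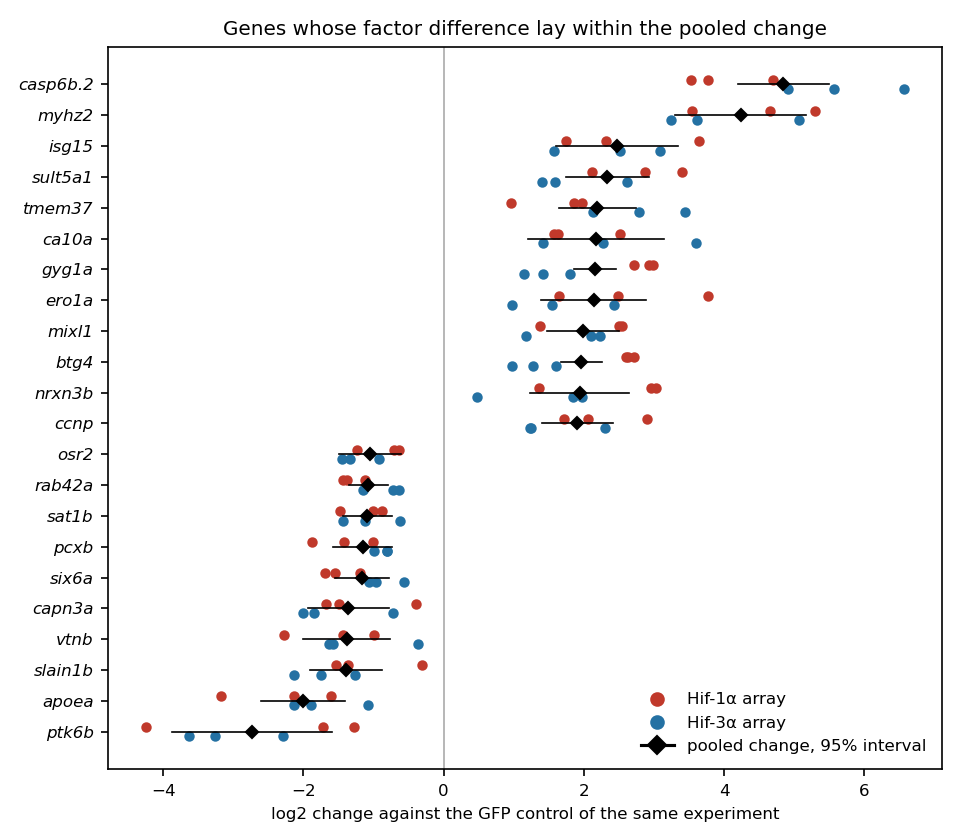
Log2 change of each injected array against the GFP control of the same experiment (horizontal axis), for 12 rising and 10 falling genes, the largest changes among genes whose factor difference lay within the pooled change, red for Hif-1α and blue for Hif-3α, with the pooled change and its 95% interval in black. The same direction in all 6 arrays was a condition for a gene to be shown. The genes run from ptk6b at the bottom to casp6b.2 at the top. For casp6b.2, myhz2 and ca10a no control array was above background, so that their sizes are not measured.

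Further genes had a higher mean level with each factor than in the controls, some of them near background. For none of them did the Hif-3α change pass by itself. myhz2, a fast muscle myosin heavy chain, was not above background on any control array, at -7.85, -8.03 and -7.35, and was so on all 6 injected arrays, at -3.18, -2.74 and -3.80 with Hif-1α and -2.78, -4.41 and -4.10 with Hif-3α. It entered the fit through the injected arrays and was at least 5.61-fold higher (adjusted p of the fit = 0.0107), but myosin genes are close copies of each other and its identity is uncertain. The sulfotransferase sult5a1 rose by 2.33 ± 0.25 (2.80 and 1.87), with 1.19 at a further probe that did not pass, and ccnp, a cyclin, by 1.91 ± 0.21 (2.23 and 1.59). The membrane protein gene tmem37, above background on 1 of 3 control and 2 of 3 Hif-1α arrays, rose by 2.19 ± 0.23 (1.60 and 2.79). tmem37 entered the fit through the Hif-3α arrays, so this size is uncertain. ca10a, a carbonic anhydrase-related gene, was above background on no control array on 2 of 3 Hif-1α arrays and on all 3 Hif-3α arrays, through which it entered the fit. It was at least 1.19-fold higher (adjusted p of the fit = 0.0308), and for Hif-1α by itself no lower bound could be given. As for casp6b.2, the p of myhz2 and of ca10a rests on control values not well above background. htra1a, a secreted protease, rose by 1.19 ± 0.12, with 0.79 under Hif-1α and 1.59 under Hif-3α, and the factor difference of 0.80 passed its test (adjusted p = 0.0389). The other kept probe of htra1a rose by 0.75 in the pooled comparison and passed when adjusted over all probes.

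Large pooled rises were not always shared evenly. cox6b1, a cytochrome c oxidase subunit, had the largest rise among the named genes with all 3 controls above background, 4.57 ± 0.82 (adjusted p = 0.0288), with 6.22 under Hif-1α and 2.91 under Hif-3α. Its controls stood at -4.83, 0.55 and -1.16, the Hif-1α arrays at 4.22, 4.60 and 4.40 and the Hif-3α arrays at 0.81, 1.18 and 1.30. The Hif-3α arrays exceeded the highest control by little, and the spread among the controls was wider than the change under Hif-3α. Leaving out 1 array moved the pooled change between 3.18 and 5.68, and in 2 of 9 such fits it passed, those without control replicate 2 and without Hif-3α replicate 2. gpr132b, a G protein-coupled receptor, rose by 3.77 ± 0.56 (5.42 and 2.12), and ctsl.1, a cathepsin of the hatching gland, by 2.26 ± 0.24 (3.96 and 0.56). rbm46, a germ cell RNA-binding protein, rose by 2.42 ± 0.19 (3.60 and 1.24, adjusted p = 0.00788). gpr132b and rbm46 were each above background on 1 of 3 control arrays. Both entered the fit through the injected arrays. Their sizes and the p of rbm46 rest partly on control values not well above background and are uncertain.

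Among the tissue lists, most of the genes that fell were somite and muscle or neural genes. Of 51 somite and muscle genes, 9 fell (17.6%, against 2.76% of all genes) and 1, myhz2, rose, and of the 9, 7 leaned to Hif-1α and 2 to neither. The median change of the list was -0.18 pooled, -0.20 with Hif-1α and -0.06 with Hif-3α. smyhc1, the slow muscle myosin, was at 2.07, 3.06 and 4.32 in the controls, 1.05, 2.21 and 2.82 with Hif-1α and 1.34, 2.78 and 3.49 with Hif-3α. Experiment 3 was the highest and experiment 1 the lowest in each group, so the groups overlapped, while every injected array lay below its own control. smyhc1 changed by -0.87 ± 0.13 (adjusted p = 0.0211), -1.13 and -0.62, and its adjusted p without the experiment in the fit was 0.492. Its 2 other kept probes, at -0.69 and -0.58, did not pass. The muscle transcription factors myog, myf6 and myod1 changed by -1.04 (-1.51 and -0.57), -0.76 (-1.0 and -0.53) and -0.67 (-1.04 and -0.29). desma, the muscle intermediate filament desmin, changed by -0.87 (-1.22 and -0.53). mespba, which patterns the forming somite, changed by -0.47 (-0.71 and -0.24). Without control replicate 1, 0 of these genes passed, and within the shared scan day 0 fell (0 to 12 fell over all 9 fits with 1 array left out).

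Of 60 neural genes 7 fell (11.7%, against 2.76% of all genes) and 0 rose, 6 of the 7 leaning to Hif-1α and 1, six6a, to neither factor. The median change of the list was near 0, at -0.09 pooled, -0.21 with Hif-1α and 0.03 with Hif-3α. six6a, a homeobox gene of the eye field, was at -2.27, -2.27 and -1.17 in the controls, -3.47, -3.96 and -2.72 with Hif-1α and -3.34, -2.83 and -2.14 with Hif-3α. The Hif-1α arrays lay below all controls, 1 Hif-3α array lay within the range of the controls, and all 6 lay below the control of their experiment. six6a changed by -1.17 ± 0.16 (adjusted p = 0.0175), -1.48 and -0.86. The retinal homeobox gene vsx1, above background on 2 of 3 arrays in each injected group, changed by -1.63 (-2.22 and -1.05). It entered the fit through the control arrays, so this size is uncertain. The forebrain zinc finger gene fezf1 and the eye field gene rx1 changed by -1.13 (-1.63 and -0.63) and -1.0 (-1.45 and -0.55). Without the experiment in the fit 0 of the 60 passed, and 0 did without control replicate 1 or within the shared scan day.

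Outside the lists, ptk6b, a tyrosine kinase, had the largest fall among the genes named. It was above background on all 3 control arrays and on 1 of 3 in each injected group, so it entered the fit through the control arrays. Its level was -2.14, -3.77 and -5.17 in the controls, -3.41, -8.02 and -6.88 with Hif-1α and -4.42, -7.41 and -8.42 with Hif-3α, so replicate 1 of each injected group lay within the range of the controls. The change was -2.73 ± 0.48 (adjusted p = 0.0270), -2.41 with Hif-1α and -3.06 with Hif-3α. Most injected values were not well above background, so this size is uncertain. ptk6b passed in 2 of 9 fits that left out 1 array, and its adjusted p without the experiment in the fit was 0.273. sat1b, which acetylates spermidine, changed by -1.09 ± 0.14, nearly alike with Hif-1α (-1.12) and Hif-3α (-1.06), with a 95% interval of the factor difference from -0.34 to 0.46. slain1b, a microtubule regulator, changed by -1.39 ± 0.21 (-1.07 and -1.72), capn3a, a calpain protease, by -1.36 ± 0.24 (-1.19 and -1.52), and osr2, a transcription factor of kidney and fin, by -1.05 ± 0.19 (-0.86 and -1.24). The other kept probe of osr2 differed by -0.09 and did not pass. The pyruvate carboxylase gene pcxb changed by -1.15 ± 0.17 (-1.44 and -0.87). hhatla was above background on no Hif-1α array and was at least 3.51-fold lower there, so its pooled size is not measured. With Hif-3α, where 2 of 3 arrays were above background, hhatla changed by -0.99. It too entered the fit through the control arrays.

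**Figure D5:**
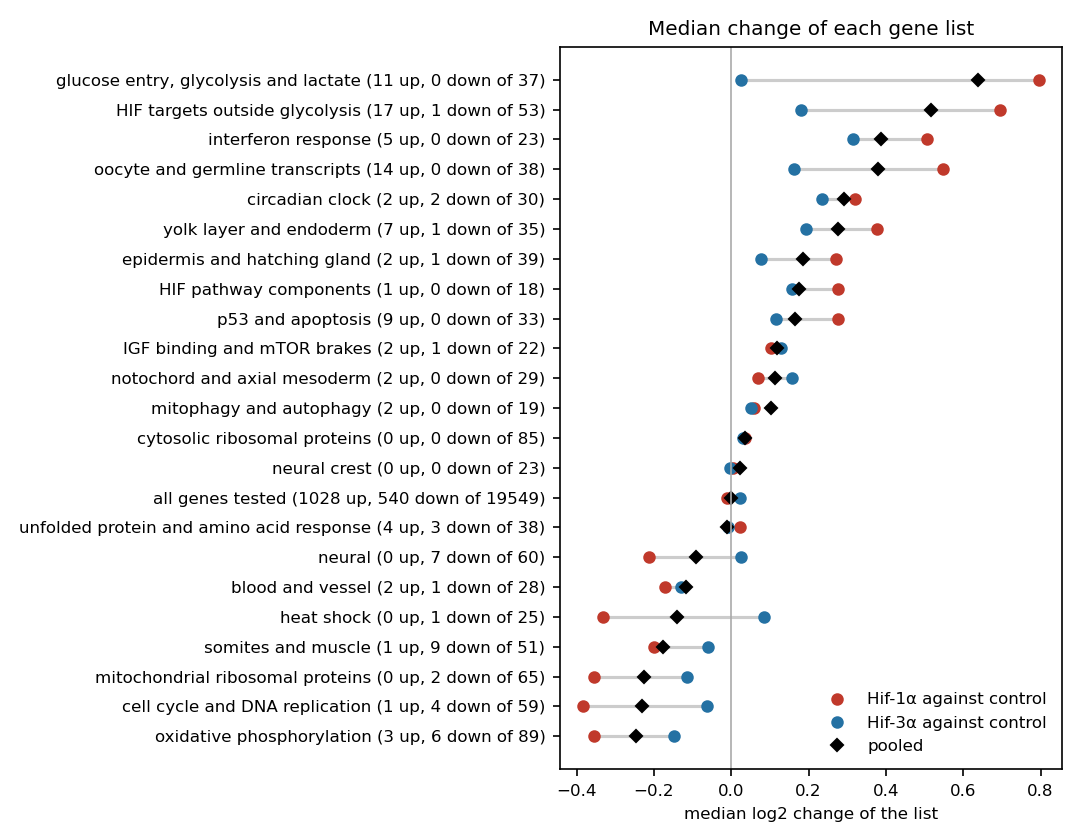
Median log2 change of each gene list (horizontal axis) for Hif-1α against control (red), Hif-3α against control (blue) and both pooled (black diamond), with the number of genes that rose and fell of those tested beside each list name. The red point lies farther from 0 than the blue one for glycolysis (0.80 against 0.02), HIF targets (0.69 against 0.18) and germline transcripts (0.55 against 0.16), and the cytosolic ribosomal proteins lie near 0. The spread among the control arrays is not shown. For glycolysis and HIF targets, the list medians of single control and Hif-3α arrays overlapped.

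The counts of the remaining lists stand beside the 5.26% of all genes that rose and the 2.76% that fell. Of 89 genes of oxidative phosphorylation, 6 fell (6.74%) and 3 rose (3.37%), with a median of -0.25. The ATP synthase subunit atp5mc1 and cytochrome c, cycsb, changed by -0.71 (-1.0 and -0.41) and -0.59 (-0.89 and -0.30), while the cytochrome c oxidase subunits cox6b1, cox7a1 and cox5b2 rose. cox7a1, above background on 2 of 3 Hif-3α arrays, had changes of 3.30 with Hif-1α and -0.64 with Hif-3α. At its brightest probe cox5b2 had changes of 2.25 and -0.05. The pooled rise at the 2 other kept probes of cox5b2 was larger, 3.33 and 4.36, and both passed when adjusted over all probes. Of 59 cell cycle genes, 4 fell (6.78%) and 1 rose (1.69%), the germline cyclin ccna1, by 1.12 (1.46 and 0.77). The replication factors rpa2 and orc2 changed by -0.71 and -0.56. In the unfolded protein and amino acid response list 4 of 38 rose (10.5%) and 3 fell (7.89%): the transcription factors cebpb and atf3 rose by 0.97 and 0.93, while the serine synthesis genes phgdh and psat1 and the asparagine synthetase asns changed by -0.77, -0.83 and -0.72. The clock genes cry5, a photolyase, and nfil3-5, a repressor, rose by 0.78 (0.71 and 0.86) and 0.69 (0.77 and 0.61), and aanat2, of melatonin synthesis, and rorab changed by -1.0 (-1.55 and -0.45) and -0.75 (-1.10 and -0.39), so that 2 of 30 rose and 2 fell (6.67% each).

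In the list of insulin-like growth factor binding and mTOR brakes, 2 of 22 rose (9.09%), ddit4 and sesn3, the latter by 1.41 (1.87 and 0.96), and 1 fell (4.55%), deptor, which changed by -0.54 (-0.65 and -0.43). Another kept probe of deptor, at -0.74, did not pass. Of 19 mitophagy and autophagy genes 2 rose (10.5%), bnip3lb and map1lc3c, the latter by 1.52 (2.18 and 0.86). Blood and vessel genes gave 2 higher (7.14%) and 1 lower (3.57%) of 28, with the aquaporin aqp8a.1, above background on 2 of 3 control arrays, up by 1.07 (1.15 and 1.00) and the blood stem cell factor myb changed by -0.66. Notochord genes gave 2 higher of 29 (6.9%), among them the signalling gene shhb, which rose by 0.73 (0.86 and 0.59). The other kept probe of shhb, at 0.55, did not pass. Epidermis and hatching gland genes gave 2 higher (5.13%) and 1 lower (2.56%) of 39, and heat shock genes 1 lower of 25 (4%). Of the mitochondrial ribosomal proteins 2 of 65 fell (3.08%). No member passed among 23 neural crest genes or 85 cytosolic ribosomal proteins in the limma fit. Some genes belong to more than 1 list, so the lists are not independent of each other.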

How the data were processed

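The deposited file of each 1-colour (Cy3) array gives the processed signal and the median spot and background signals as intensity values, made with Feature Extraction 10.7.3.1. The processed signal was corrected for background and detrended within an array, per the file headers, with no step between arrays. Other values in the deposited files are flags of 0 or 1 per spot, for an outlier, for saturation and for signal well above background. The authors normalized with GeneSpring 11.0, per the series' design text, and their deposited matrix is in log2 units. Its centring is unstated, its column medians were 6.0852 to 6.0854, and it was used as an alternative. The array is a zebrafish design per the file headers, while the labels' protocol gives a mouse design.

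Probes were named by RefSeq accession through a RefSeq gene table of assembly GRCz12tu, used for names alone: 25069 of 43603 probes received a symbol. Control spots and 459 outlier-flagged probe values were left out, and 0 spots were saturated. A group in which all 3 arrays showed a probe well above background was required to keep the probe (31116 kept), and the brightest kept probe stood for a gene, which gave 19549 genes or transcripts, 8907 of them without a symbol. The log2 signal minus the array's 75th percentile entered limma 3.58.1 (R 4.3.3, lmFit and eBayes) with group and experiment as terms, leaving 4 residual degrees of freedom, two-sided, with Benjamini-Hochberg adjustment over all genes and a threshold of 0.05. Experiments pair the arrays per the series' design text, and same-number deviations correlated in all 9 pairs. "At least" folds use the lowest signal well above background on the dim arrays. The number of arrays limits the precision: the median SE of a pooled change was 0.123. The fit was tested on simulated data.

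Named genes were the largest pooled changes with 1 direction in all 6 injected arrays (15 up, 12 down), the largest among those with the factor difference inside the pooled change (12 up, 10 down), up to 3 called members of each of the 22 lists by smallest p, those with the larger, tested change in Hif-3α, and a set of HIF genes given whatever their values. Other list members that passed were named after their values were seen, to describe their list, and some genes that passed are not reported here. The comparison, lists and rule were chosen with earlier results of these data known. List counts and medians are descriptions without a test. The alternatives were the block, scaling, background, matrix, probe filter, probe choice, scan day, slide, array weights, moderation and leaving out arrays or experiments.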

Additional observations from a re-analysis of the deposited data

Results flagged for a closer look

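The counts by gene rest on the brightest probe, adjusted over genes. Of 7451 genes with several kept probes, 386 that were not called had another probe that passed when adjusted over all probes, so part of these rest on the family of the adjustment. The probes of hif1al, the gene that carries the Hif-3α synonym, changed by 4.313, 3.237 and 2.965 while its brightest probe differed by -0.04. Their change with Hif-1α was 0.13, 0.06 and 0.08, so the pooled values hold the Hif-3α arrays alone. A probe of stc1, a secreted calcium-regulating hormone, changed by 2.57 (limma adjusted p = 0.0473), against 2.65 at the brightest probe (adjusted p = 0.0507 over genes and 0.0483 over all probes, so both probes pass in the latter), with 4.14 under Hif-1α and 1.00 under Hif-3α. A probe of the aldolase aldocb changed by 2.293 (adjusted p = 0.0445), against 2.57 at its brightest (adjusted p = 0.0684 over genes and 0.0663 over all probes), with 4.16 and 0.43.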

How the results depend on the processing

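With 1568 pooled calls in the fit as reported, 263 passed without the replicate block, 311 with no filter on dim probes, 0 with normexp background (643 at an unadjusted p under 0.05), 21 with scan day and replicate block or within the shared scan day, 0 with scan day as a block (1719 unadjusted) and 2479 with trend and robust moderation. Without injection experiment 1 or 3, 3 and 0 passed (2803 unadjusted for the latter). Leaving out single arrays or experiments gave 0 to 3270. After seeing the data, 2 settings were added: without control replicate 1 and Hif-3α replicate 1 3 passed, and with the factors as 1 group 0 did (3541 unadjusted). The deposited matrix (1528), median centring (1588), quantile normalization (1468), the mean of a gene's probes (1504) and array weights (2341) stayed within 1.5 times. For Hif-1α, with 4420 calls, the counts in the same order were 1857, 2291, 0, 72, 72 and 4, and 525 and 2 without experiments 1 and 3 (range 2 to 5809 when leaving out). It gave 525 without the 2 arrays. Median centring moved its split to 1764 higher and 3319 lower. For Hif-3α, with 1 call, 0 passed with quantile normalization, normexp, the deposited matrix, no filter or scan day as a block, 2 with the mean of probes, 3 with scan day and replicate block or within the day, 25 with array weights, 17 with trend and robust moderation, and 0 to 50 when leaving out. For the factor difference, with 890 calls, 181 passed without the replicate block, 133 with no filter, 0 with normexp, scan day or slide as a block, 32 with scan day and replicate block or within the day, 3990 with array weights, 2039 with trend and robust moderation, 38 without the 2 arrays and 2 to 2408 when leaving out. Slide as a block could not estimate the other comparisons. The cause of these shifts was not tested. Of the 1568 called genes, 1372 kept their sign with normexp, 1567 with the deposited matrix and 1565 with the mean of probes. Among the named genes, sign changes were found with normexp for aqp8a.1 (-0.02519), ca10a (-0.08901) and hif1al (0.05807), with the mean of probes for hif1al (2.62), and for igfbp1b, which does not differ from 0, with scan day and replicate block or within the day (0.08809), scan day as a block (0.1196), array weights (0.1377), without the 2 arrays (0.1487) and when leaving out (-0.214 to 0.149).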
